A study of Mus musculus with 10 samples.

Results

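Sox7, Sox17 and Sox18 make up the SOXF group of SOX transcription factors. They were taken by their symbols from the deposited matrix of stage means and followed in every library of a differentiation from mouse embryonic stem cells to blood progenitors. The 3 genes were among 15686 genes of that matrix and 55487 genes of the count tables, and all 3 passed the filter on low counts. Nuclear RNA was sequenced from 5 cell populations, with 2 libraries each, all derived from HM-1, a mouse embryonic stem cell line for gene targeting, so that every group shares 1 line. Undifferentiated cells kept with LIF were the ES stage. Hemangioblast (HB) cells were FLK1+ cells taken from embryoid bodies after 3 days in serum. HB cells were then replated in blast medium with VEGF, IL-6 and D4T conditioned medium, and 3 populations were sorted from that culture. The first hemogenic endothelium (HE1) was KIT+ TIE2+ CD41-, the second (HE2) was KIT+ TIE2+ CD41+, and hematopoietic progenitors (HP) were KIT+ TIE2- CD41+. The labels name no deletion or added gene in any group. The sort rests on surface protein, and TIE2 and CD41 are the products of Tek and Itga2b.

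SOXF proteins bind DNA through an HMG box, a domain that bends the double helix, and carry an activation domain towards the C terminus. In the embryo they act in endothelial cells, where Sox7, Sox17 and Sox18 overlap in function in vessel formation and in arterial and lymphatic fate. Sox17 and Sox7 are also known from endoderm, and Sox17 from the hemogenic endothelium, where forced SOXF activity is known to hold cells in an endothelial state and its loss accompanies the emergence of blood cells.

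The genes lie on different chromosomes of the mm10 build. Sox7 (ENSMUSG00000063060) spans chr14:63943673-63950732 on the plus strand, Sox17 (ENSMUSG00000025902) chr1:4490931-4497354 on the minus strand, and Sox18 (ENSMUSG00000046470) chr2:181669836-181671640 on the minus strand. Their annotated exons cover 3299, 4772 and 1620 bases.

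Depth ranged from 24920434 to 58782055 counted fragments a library. A count of 3 stood for 0.0532 to 0.126 CPM, the count scaled to library size. The lowest SOXF count, 9 fragments of Sox17 in ES replicate 2, lay above that floor. So did the lowest SOXF CPM, 0.213 for Sox17 in ES replicate 1. Most defining markers followed the stage names. ES markers summed to 3100 and 3130 CPM in ES and to at most 439 CPM elsewhere. Kdr, the gene for FLK1, reached 956 and 1280 CPM in HB from 2.43 and 2.70 CPM in ES. Tek was 564 and 294 CPM in HE1, 285 and 159 CPM in HE2, and 61.5 and 64.1 CPM in HP. Itga2b was already 227 and 127 CPM in HE1, sorted as CD41-, from 48.0 and 34.4 CPM in HB (log2 fold change 2.10, edgeR adjusted p = 0.000272), and 505 and 469 CPM in HE2. Kit did not set HE1 apart, with 146 and 72.9 CPM there, 73.3 and 69.3 CPM in HB and 163 and 173 CPM in ES (0.62 from HB to HE1, edgeR adjusted p = 0.177). Without HE1 replicate 2 the log2 fold change of Kit from HB to HE1 was 1.04. Of 6 markers each, 5 HB markers were called lower and 5 HE markers higher from HB to HE1, and all 6 HP markers were called higher from HE1 to HP, counts that became 5, 6 and 4 without HE1 replicate 2. Of all tested genes 8.19% were called lower and 12.7% higher from HB to HE1, and 5.35% higher from HE1 to HP. Markers of other cells of the culture (muscle, macrophage and primitive erythroid genes) summed to 1120 and 1250 CPM in HE1 and to 5210 and 2710 CPM in HP. HE1 replicate 2 stood apart from HE1 replicate 1 in holding 88.3 CPM of ES markers against 7.69 CPM, and 74.2 against 16.0 CPM of Tnnt2, a heart muscle gene. Values of the SOXF genes, of the genes near Sox17 and of the gene lists that rest on HE1 are therefore also given without that library.

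All 3 SOXF genes were barely detected in ES cells, were switched on in HB, were highest in HE1 and were low again in HP. Sox7, which acts early in vascular development, had 0.479 and 0.573 CPM in ES, 58.1 and 67.1 CPM in HB, 161 and 87.7 CPM in HE1, 54.0 and 13.8 CPM in HE2, and 2.92 and 11.9 CPM in HP (replicates 1 and 2 in each case). Sox17, a regulator of arterial and hemogenic endothelium, had 0.213 and 0.258 CPM in ES, 14.6 and 12.4 CPM in HB, 96.3 and 77.2 CPM in HE1, 31.0 and 8.38 CPM in HE2, and 1.85 and 7.88 CPM in HP. Sox18, known for its part in lymphatic and blood vessel development, had 1.37 and 0.917 CPM in ES, 23.5 and 22.5 CPM in HB, 110 and 60.1 CPM in HE1, 92.0 and 44.8 CPM in HE2, and 12.2 and 17.2 CPM in HP. For Sox7 and Sox17 both HE1 libraries were higher than all 8 others, whereas for Sox18 the higher HE2 library exceeded the lower HE1 library.

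**Figure D1:**
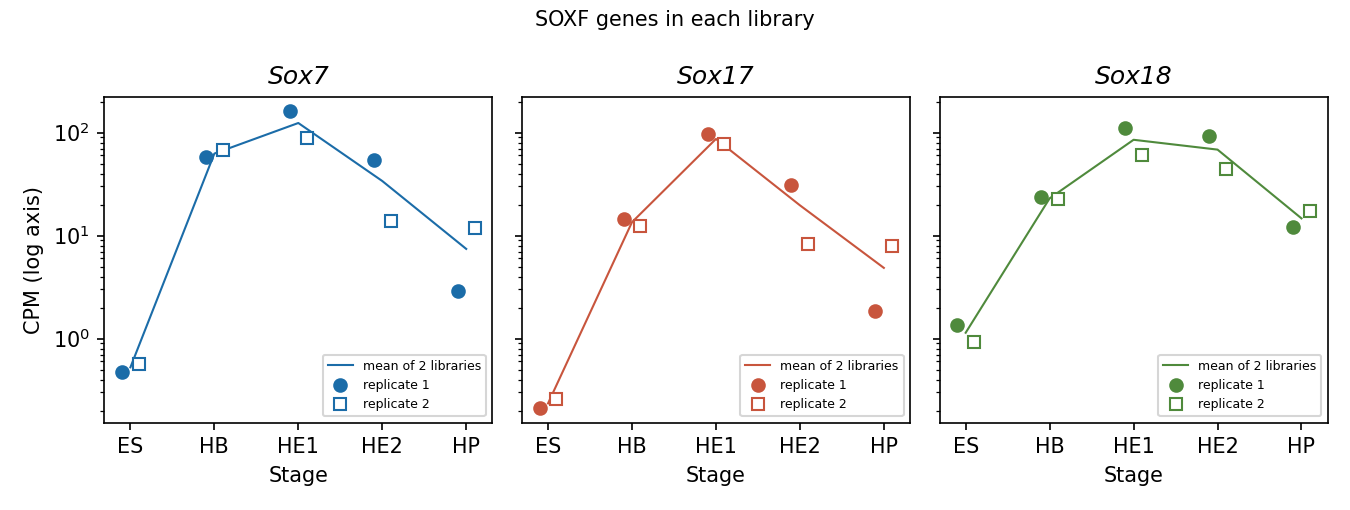
CPM of each SOXF gene (log axis) at 5 stages, with circles for replicate 1, squares for replicate 2 and a line through the mean of 2 libraries. All 3 genes peak on average in HE1, at 124, 86.8 and 85.2 CPM for Sox7, Sox17 and Sox18, and the HE2 libraries lie further apart than those of ES and HB for each gene.

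The replicate spread was not even along the path. In HB the higher library exceeded the lower by 1.15 times for Sox7, 1.18 times for Sox17 and 1.04 times for Sox18. In HE1 the ratio was 1.83, 1.25 and 1.84, with replicate 1 the higher library for each gene. In HE2 the ratio was 3.91, 3.70 and 2.05, with replicate 1 the higher library for each gene, and in HP it was 4.09, 4.27 and 1.41, with replicate 2 the higher. Of 25 endothelial and arterial genes, 22 were higher in HE2 replicate 1 than in replicate 2, where 51.8% of all tested genes were. Their summed level was 3600 against 1900 CPM there, and 6050 against 4420 CPM in replicates 1 and 2 of HE1. In HP the list was less one-sided: 17 of the 25 were higher in replicate 2 than in replicate 1, where 45.2% of all tested genes were, with sums of 1110 against 1050 CPM. The HE markers summed to 933 CPM in HP replicate 2 against 1060 CPM in replicate 1, with 3 of 6 higher in replicate 2 (Tek, Cdh5 and Esam). Kit, also an HP marker, had 251 against 363 CPM there, and Pecam1 and Tie1 were lower in replicate 2 too. The genes listed as upstream factors summed to 2540 against 2680 CPM, with 13 of 27 higher. In HE2 replicate 1 only 3 of 15 hematopoietic genes were the higher, and they summed to 1590 against 2260 CPM. In HP replicate 2 only 2 of the 15 were the higher, with sums of 2170 against 2540 CPM. The part of such differences in library makeup in the SOXF values was not tested. In RNA from whole sorted populations, fewer cells that express a gene and less RNA in each cell cannot be told apart.

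The first comparison asked which genes were gained as ES cells became FLK1+ mesoderm. All 3 SOXF genes rose, and 11.5% of the 22596 genes tested did so by the same rule, an adjusted p under 0.05 and at least a 2-fold difference. Sox7 rose most, with a log2 fold change of 6.91 ± 0.87 (SE, 120-fold, adjusted p = 0.000147 by the quasi-likelihood test of edgeR with Benjamini-Hochberg adjustment over all tested genes, as for every adjusted p that follows). Sox17 rose by 5.84 ± 0.85 (57.4-fold, adjusted p = 0.000379 in edgeR), and Sox18, which had the highest ES counts of the group, by 4.30 ± 0.43 (19.7-fold, adjusted p = 3.41e-05 in edgeR). No ES library overlapped an HB library for any of the 3, but such separation was not counted over all tested genes. Sox7 made up 50.1% and 55.2% of the summed SOXF level of HB when levels were divided by exon length.

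From HB to HE1, the step at which endothelial cells form in the blast culture, Sox17 and Sox18 rose and Sox7 did not pass the test. Among all tested genes 12.7% were called higher here. Sox17 rose by 2.68 ± 0.63 on the log2 scale (6.43-fold, edgeR adjusted p = 0.0092), from 13.5 ± 1.57 to 86.8 ± 13.5 CPM (mean ± SD, n = 2). The call on Sox17 was lost when either HB library was left out, with log2 fold changes of 2.74 without replicate 1 (edgeR adjusted p = 0.0524) and 2.53 without replicate 2 (edgeR adjusted p = 0.0775). Sox18 rose by 1.89 ± 0.36 (3.70-fold, edgeR adjusted p = 0.00345), from 23.0 ± 0.682 to 85.2 ± 35.5 CPM (mean ± SD, n = 2). Sox7 stood at 62.6 ± 6.34 CPM in HB and 124 ± 51.7 CPM in HE1 (mean ± SD, n = 2), a log2 difference of 0.99 ± 0.62 (edgeR adjusted p = 0.247), although the higher HB library, at 67.1 CPM, lay below the lower HE1 library, at 87.7 CPM. Without HE1 replicate 2 the log2 differences were 1.37 for Sox7 (edgeR adjusted p = 0.215), 2.84 for Sox17 (edgeR adjusted p = 0.023) and 2.27 for Sox18 (edgeR adjusted p = 0.00235), so the same 2 genes were called. Without HE1 replicate 1 the difference for Sox7 was 0.44 (edgeR adjusted p = 0.673).

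Within the hemogenic endothelium, HE2 differs from HE1 in the gain of CD41. Only Sox17 was called lower in HE2, where 5.38% of tested genes were. It fell by 2.14 ± 0.61 on the log2 scale (4.41-fold, edgeR adjusted p = 0.0458), close to the threshold. With total counts in place of TMM scaling the adjusted p in edgeR was 0.0578, and the call was lost in 7 of the 10 fits that each left out 1 library, most widely without HE2 replicate 2, when the log2 fold change was -1.47 (edgeR adjusted p = 0.277). Without HE2 replicate 1 it was -3.35 (edgeR adjusted p = 0.00758). Sox7 had a log2 difference of -1.87 ± 0.64 (edgeR adjusted p = 0.0722), which was called without HE2 replicate 1 (-3.15, edgeR adjusted p = 0.0126) and without either HP library (-1.86 each, edgeR adjusted p = 0.047 and 0.0458). Neither gene had overlapping libraries between the stages, a separation that was not counted over all tested genes. Without HE1 replicate 2 the log2 differences were -2.25 for Sox7, -2.29 for Sox17 and -0.69 for Sox18, and none was called (edgeR adjusted p = 0.133, 0.126 and 0.317). Sox18 differed by less than the spread of its libraries, at 85.2 ± 35.5 CPM in HE1 and 68.4 ± 33.3 CPM in HE2 (mean ± SD, n = 2), with a log2 difference of -0.32 ± 0.35 (edgeR adjusted p = 0.527) and overlapping libraries. HE2 replicate 1 held 108% of the HE1 mean of Sox18 and HE2 replicate 2 held 52.6%, against 35.7% and 9.65% for Sox17 and 43.4% and 11.1% for Sox7. The sign for Sox18 turned without HE1 replicate 1, to 0.21 (edgeR adjusted p = 0.694), and without HE2 replicate 2, to 0.12 (edgeR adjusted p = 0.885).

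From HE2 to HP, where TIE2 is lost from the cell surface, all 3 genes were lower, but none passed the adjusted threshold in edgeR. No gene of the 22596 did in edgeR (0%), although 1783 had an unadjusted p under 0.05, and limma-voom called 62 and DESeq2 301. The log2 differences were -2.21 ± 0.67 for Sox7 (edgeR adjusted p = 0.291), -2.04 ± 0.63 for Sox17 (edgeR adjusted p = 0.309) and -2.22 ± 0.37 for Sox18 (edgeR adjusted p = 0.0665). DESeq2 called Sox18 alone of the 3, at -2.22 (DESeq2 adjusted p = 1.12e-06). In edgeR, all 3 were called without HE2 replicate 2, the library with the lower SOXF levels, at -2.88, -2.70 and -2.65 for Sox7, Sox17 and Sox18 (edgeR adjusted p = 0.0295, 0.0303 and 0.00545). Without HE2 replicate 1 they were -0.92, -0.81 and -1.62 (edgeR adjusted p = 0.918, 0.918 and 0.366). Sox18 was also called without either HE1 library, at -2.21 and -2.22 (edgeR adjusted p = 0.0319 and 0.0385).

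Over the whole passage from HE1 to HP all 3 SOXF genes fell, while 11.2% of tested genes were called lower. Sox17 fell by 4.18 ± 0.68 on the log2 scale (18.1-fold, edgeR adjusted p = 0.00195) and Sox7 by 4.08 ± 0.71 (16.9-fold, edgeR adjusted p = 0.00278). Sox18 fell by 2.54 ± 0.37 (5.81-fold, edgeR adjusted p = 0.00119). HP replicate 1 held 2.35%, 2.13% and 14.3% of the HE1 mean of Sox7, Sox17 and Sox18, and HP replicate 2 held 9.62%, 9.08% and 20.2%. Left-out libraries ended none of these calls. Without HE1 replicate 2 the log2 fold changes were -4.46 for Sox7, -4.33 for Sox17 and -2.91 for Sox18, without HP replicate 1 they were -3.37, -3.45 and -2.30, and without HP replicate 2 they were -5.39, -5.53 and -2.79.

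The loss did not return the genes to the ES state. HP was above ES for all 3, where 16.7% of tested genes were called higher, by 3.81 ± 0.83 on the log2 scale for Sox7 (edgeR adjusted p = 0.00302), 4.35 ± 0.86 for Sox17 (edgeR adjusted p = 0.00169) and 3.65 ± 0.42 for Sox18 (edgeR adjusted p = 5.26e-05). Sox7 lost this call in limma-voom, at 3.37 (limma adjusted p = 0.069). Sox7 and Sox17 stood at 2.49 and 2.98 without HP replicate 2 (edgeR adjusted p = 0.027 and 0.0117) and at 4.51 and 5.07 without HP replicate 1 (edgeR adjusted p = 0.000996 and 0.000435). Against HB, Sox7 was lower in HP, at -3.09 ± 0.68 (edgeR adjusted p = 0.00591, with 11.6% of tested genes called lower), while Sox17, at -1.49 ± 0.63 (edgeR adjusted p = 0.1), and Sox18, at -0.65 ± 0.36 (edgeR adjusted p = 0.208), did not pass the test. Sox17 was called lower there without HP replicate 2 (-2.86, edgeR adjusted p = 0.0127) and without either HE2 library (-1.49 and -1.50, edgeR adjusted p = 0.0387 and 0.0386), and stood at -0.77 without HP replicate 1 (edgeR adjusted p = 0.4). Sox18 was in turn above HB in HE2, by 1.57 ± 0.36 (edgeR adjusted p = 0.00787, with 9.76% of tested genes called higher), a call that was lost without HE2 replicate 1 (0.97, edgeR adjusted p = 0.067) and without either HB library (1.57 and 1.53, edgeR adjusted p = 0.0536 and 0.0552). Sox7, at -0.89 in HE2 against HB (edgeR adjusted p = 0.333), was called lower without HE2 replicate 1 (-2.18, edgeR adjusted p = 0.0383).

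**Figure D2:**
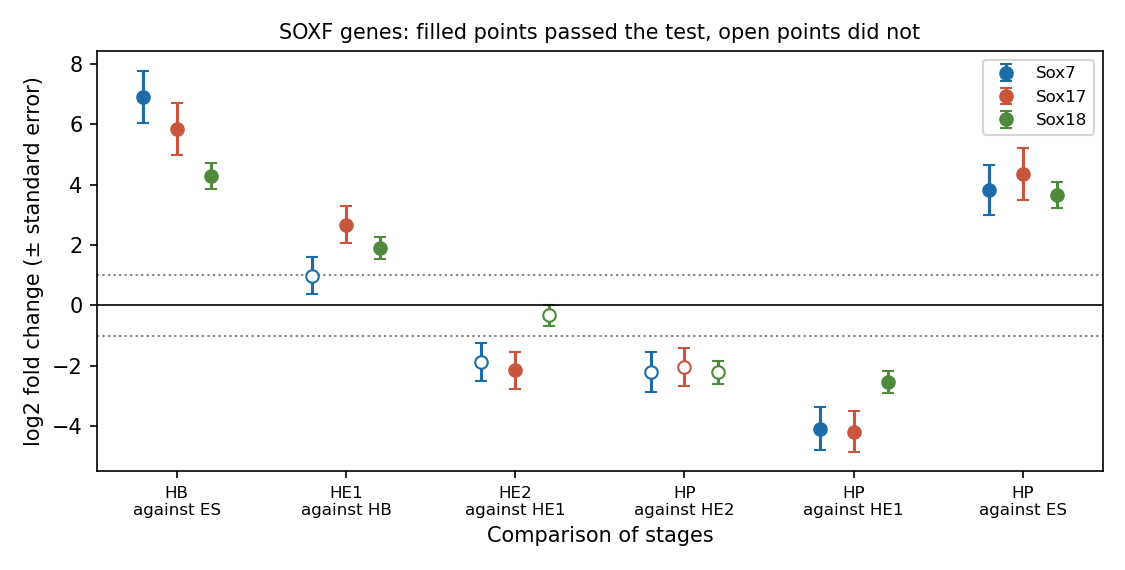
log2 fold change of each SOXF gene in 6 comparisons of stages, with bars for the standard error, filled points for genes called in edgeR and dotted lines at a 2-fold difference. Sox7 has the largest gain from ES to HB (6.91), Sox17 from HB to HE1 (2.68), and Sox18 the smallest loss from HE1 to HP (-2.54).

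The stages were ordered by mean level for each gene. For Sox7 it was HE1, HB, HE2, HP and ES, and of the neighbours in this order only HP and ES were separated by the test. For Sox17 the order was HE1, HE2, HB, HP and ES, with HE1 separated from HE2 and HP from ES, and with HE2 and HB overlapping. The places of HE2 and HB, the only difference from the order of Sox7, were not separated by the test for either gene (edgeR adjusted p = 0.333 and 0.55), and without HE2 replicate 1 Sox17 was lower in HE2 than in HB (-0.68, edgeR adjusted p = 0.457), as Sox7 was. Sox18 had the same order as Sox17, but its separations were HE2 from HB and HP from ES. Those of HE1 from HE2 for Sox17 and of HE2 from HB for Sox18 were lost in the fits without single libraries given above.

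Levels were compared between the 3 genes only as CPM per kb of exon. Sox18 was the most abundant in 8 of 10 libraries, with means of 0.704 in ES, 52.6 in HE1, 42.2 in HE2 and 9.06 CPM per kb in HP. Sox7 led in both HB libraries, with 17.6 and 20.3 CPM per kb against 14.5 and 13.9 for Sox18. Sox17 was the least abundant in every library, with 20.2 and 16.2 CPM per kb in HE1 against 48.7 and 26.6 for Sox7. This order was unchanged when the transcript of each gene that GENCODE M21 numbers first alone gave the length. It changed in both HE1 libraries when CPM were not divided by length. For Sox17 that transcript has 3127 bases against 4772 for all exons, so its CPM per kb and its shares would be higher with it.

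The share of each gene in the summed SOXF level is given here as a description. Sox18 made up 41.2% and 37.7% of the HB sums, 49.7% and 46.4% of the HE1 sums, 71.3% and 82.3% of the HE2 sums, and 85.5% and 66.8% of the HP sums. The share of Sox7 went from 50.1% and 55.2% in HB to 20.5% and 12.4% in HE2. Sox17 had its largest shares in HE1, at 14.7% and 20.3%. The shares of HE1 and HE2 did not overlap for any gene, but the exact two-sided permutation test of 2 libraries against 2 cannot give a p under the 0.333 found, and so says nothing for or against a difference.

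**Figure D3:**
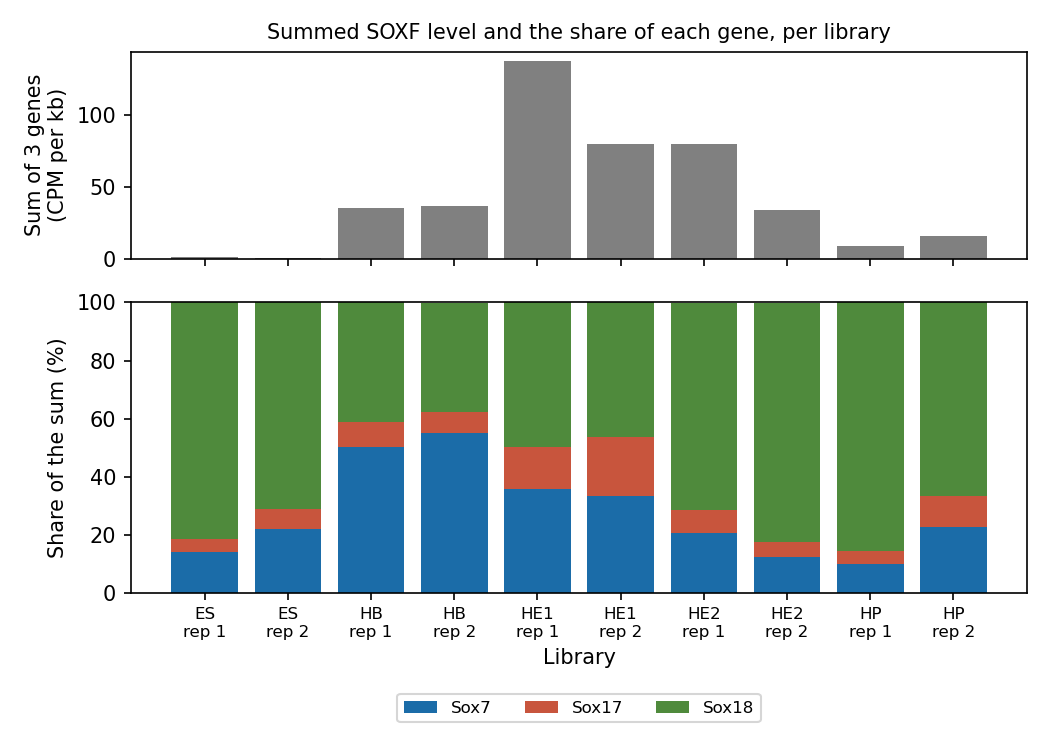
Summed level of the 3 SOXF genes in CPM per kb (upper bars) and the percent of that sum from each gene (lower bars), for 10 libraries. The sum is 137 and 79.8 CPM per kb in HE1 and 8.77 and 15.9 in HP, and Sox18 makes up at least 66.8% of it in HE2 and HP.

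Of 25 endothelial and arterial genes, 19 were called lower and 1 higher from HE1 to HP, where 11.2% and 5.35% of all tested genes were. The SOXF genes were therefore also set against Cdh5, which encodes VE-cadherin of endothelial junctions, within each library. This measure was chosen after the values were seen and is a description. Cdh5 itself was 1430 and 797 CPM in HE1, 862 and 412 CPM in HE2, and 118 and 179 CPM in HP. Sox18 was 7.71% and 7.54% of the Cdh5 level in HE1, then 10.7% and 10.9% in HE2, then 10.3% and 9.58% in HP, so its ratio to Cdh5 did not fall. Sox17 was 6.73% and 9.69% of it in HE1, then 3.59% and 2.03% in HE2, then 1.57% and 4.39% in HP. Sox7 was 11.2% and 11.0% of it in HE1, then 6.26% and 3.35% in HE2, then 2.48% and 6.66% in HP. Thus Sox7 and Sox17 were lower relative to Cdh5 in every HE2 and HP library than in either HE1 library. In HB, where Cdh5 was 109 and 87.6 CPM, the ratio was 53.2% and 76.6% for Sox7, 13.4% and 14.1% for Sox17 and 21.5% and 25.7% for Sox18, above that of every later library for each gene. Against the sum of Cdh5, Tek, Pecam1, Esam and Tie1, Sox18 was 3.10% and 2.88% in HE1, then 4.01% and 3.28% in HE2, then 1.75% and 2.52% in HP, so with this denominator its HP values lay below those of HE1.

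**Figure D4:**
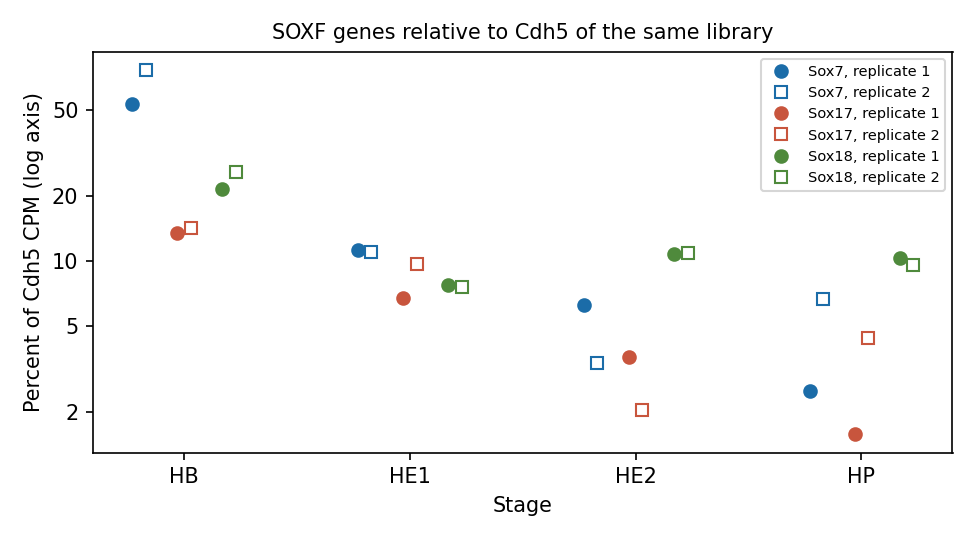
SOXF level as a percent of the Cdh5 level of the same library (log axis) at 4 stages, with circles for replicate 1 and squares for replicate 2. Sox18 lies at 7.54% to 10.9% from HE1 to HP, while Sox7 and Sox17 are lower in HE2 and HP than in HE1.

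The genes around Sox17 were read beside it. Of 16 other genes within 300 kb, 14 are not protein coding, and 5 of these passed the filter. Gm37587, a noncoding transcript on the opposite strand (chr1:4496551-4499558), overlaps the 5′ end of Sox17 by 804 bases. The library kit kept the strand and the authors counted by it, so the overlap gives no shared counts of correctly oriented reads. Gm37587 had a count of 0 in both ES libraries, 8 in both HB libraries, 25 and 66 in the HE1 libraries, 12 and 2 in those of HE2, and 0 and 3 in those of HP. It rose from HB to HE1 by 2.71 on the log2 scale (edgeR adjusted p = 0.0479) and was called lower in HP than in HE1 (edgeR adjusted p = 0.0103), where no fold is given because of the counts at or under the floor in HP. Gm7357, a processed pseudogene 25.6 kb from Sox17 (chr1:4522905-4526737), also on the opposite strand, had 0.106 and 0.287 CPM in ES, 0.529 and 0.197 CPM in HB, 2.52 and 4.13 CPM in HE1, 0.792 and 0.159 CPM in HE2, and 0.160 and 0.508 CPM in HP. It rose from HB to HE1 by 3.21 (edgeR adjusted p = 0.0159), was lower in HE2 than in HE1 (log2 fold change -2.79, edgeR adjusted p = 0.049) and in HP than in HE1 (-3.35, edgeR adjusted p = 0.0169). Without HE1 replicate 2 neither rise from HB was called, at 2.09 for Gm37587 and 2.81 for Gm7357 (edgeR adjusted p = 0.193 and 0.0612), Gm37587 remained called lower in HP (edgeR adjusted p = 0.0494), and Gm7357 did not (-2.96, edgeR adjusted p = 0.0731), nor was it called in HE2 (-2.39, edgeR adjusted p = 0.19). The rise of Gm37587 was also lost without either library of ES or HB, in DESeq2 (adjusted p = 0.0757), and in edgeR with total counts, with the replicate block and without the 20 genes with the most counts (adjusted p = 0.0629, 0.0835 and 0.0506), that of Gm7357 without HB replicate 2 (2.61, edgeR adjusted p = 0.133), and both losses in HP without HP replicate 1 (edgeR adjusted p = 0.0745 and 0.132). Both noncoding genes thus peaked in HE1 as Sox17 did but at far lower CPM, and between the HE1 libraries they were higher in replicate 2, whereas Sox17 was higher in replicate 1.

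The more distant genes did not share the pattern. The pseudogenes Gm6085 and Gm6123, 191 and 274 kb away, stayed between 0.638 and 3.70 CPM and were called in none of the comparisons along the path. Mrpl15, a mitochondrial ribosomal protein gene 276 kb away, was highest in ES at 103 and 98.1 CPM and stood at 44.5 and 43.3 CPM in HE1. Gm37144 fell from a mean of 4.70 CPM in ES to 2.15 and 1.38 CPM in HB (log2 fold change -1.41, edgeR adjusted p = 0.0264). Within 50 kb of Sox18, Gm29797 had 0.595 and 0.394 CPM in HB, 3.74 and 2.24 CPM in HE1 and 0.342 and 0.858 CPM in HP, with log2 fold changes of 2.59 from HB to HE1 and -2.33 from HE1 to HP (edgeR adjusted p = 0.0098 and 0.0184). The other tested genes of that window, Prpf6, Tcea2, Rgs19 and Oprl1, were not called in either of these comparisons. Near Sox7, Pinx1 stood between 8.76 and 15.6 CPM in all libraries. Gm29797 and the genes near Sox7 and Sox18 were named after their values were seen.

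**Figure D5:**
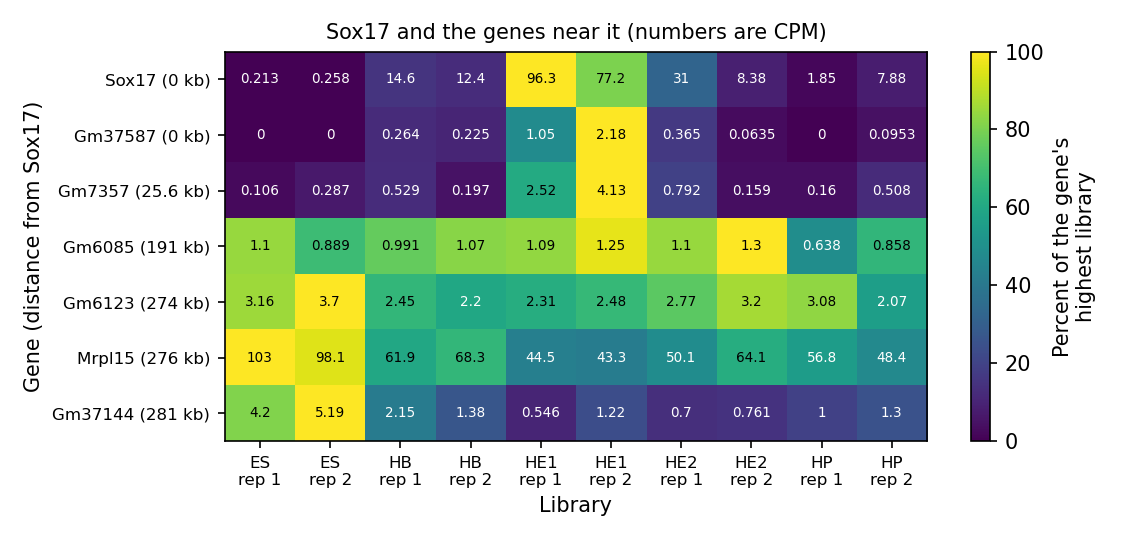
Sox17 and the genes within 300 kb of it that reached a mean of 1 CPM in a stage, 1 row a gene with its distance in kb, 1 column a library, colored by the percent of the highest library of that gene and labelled with CPM. Gm37587 and Gm7357 are highest in the HE1 libraries, as Sox17 is, and the 4 genes further away are not.

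Signals and factors taken as possible regulators of SOXF genes in vessels, a role not tested here, were followed as a list of 27 genes. From ES to HB 21 of them were called higher and 2 lower (11.5% and 17.3% of all tested genes were), with a median log2 fold change of 3.61 beside 0 for all tested genes. From HB to HE1, 11 were called higher and 3 lower (12.7% and 8.19% of all tested genes were), with a median of 0.34 against 0.035 for all, and the counts were equal without HE1 replicate 2 (median 0.72), with Nrp2 called in place of Flt1. Nr2f2, a factor of venous identity, rose by 2.64 (edgeR adjusted p = 0.00429), Klf2, which responds to flow, by 2.55 (edgeR adjusted p = 0.00193), the ETS factor Erg by 2.35 (edgeR adjusted p = 7.9e-05) and Mef2c by 2.25 (edgeR adjusted p = 0.000365). Etv2, the ETS factor that starts the endothelial program, had 55.5 and 69.5 CPM in HB and fell by 3.79 (edgeR adjusted p = 1.83e-05), so it was highest 1 stage before the SOXF genes peaked. Vegfb (-1.55) and Vegfc (-1.29), ligands of the VEGF receptors, also fell.

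From HE1 to HP, 14 of the 27 upstream genes were called lower and 3 higher (11.2% and 5.35% of all tested genes were), with a median of -1.10 against -0.024 for all, and the counts were equal without HE1 replicate 2 (median -1.46), with Gata2 called in place of Etv2. Foxc2 fell by 5.00 (edgeR adjusted p = 0.0031). The WNT effectors Lef1 (-3.12) and Tcf7l1 (-2.80) and the ligand gene Vegfa (-2.78) followed (edgeR adjusted p = 0.00685, 0.000154 and 0.00079), with Lef1 at -2.38 without HE1 replicate 2 (edgeR adjusted p = 0.0492). The 3 genes called higher were Lyl1 (2.01), Mef2c (1.59) and Tal1 (1.39), factors that also work in blood cells. Erg, at 53.8 and 33.2 CPM in HP, had a log2 difference of -0.73 (edgeR adjusted p = 0.0373), under the 2-fold limit.

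Of 25 endothelial and arterial genes named as SOXF targets or partners, 14 were called higher and 2 lower from HB to HE1 (median 2.07), where 12.7% and 8.19% of all tested genes were. Emcn (5.15), Pecam1 (4.10) and Robo4 (3.82), which encode adhesion and guidance proteins of the endothelial surface, were among those called higher. Vcam1, an adhesion gene, was also called higher, with 0 and 0.169 CPM in HB and 6.73 and 3.17 CPM in HE1. Cxcr4, a chemokine receptor of arterial and mesodermal cells, and the Notch target Hey1 fell, with log2 fold changes of -5.60 and -2.35. From HE1 to HP, 19 were called lower and 1 higher (median -2.79, with 11.2% and 5.35% of all tested genes called), led by Emcn (-4.05), the junction gene Cldn5 (-4.03), Robo4 (-3.98) and the transcription factor gene Mecom (-3.84). Mmrn1, also a megakaryocyte gene, was the 1 gene called higher, by 4.78. Sox7 and Sox17, at -4.08 and -4.18, lay next to Emcn, and Sox18, at -2.54, lay near the median of the list. Without HE1 replicate 2, 15 were called higher and 2 lower from HB to HE1 (Gja5 and Jag1 gained a call and Notch4 lost it), and 19 lower and 1 higher from HE1 to HP, with Prox1 in place of Dll4. Cxcr4, with 0.420 and 3.00 CPM in HE1, then stood at -7.66 against HB, and Mmrn1 at 3.90 in HP against HE1.

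Hematopoietic genes went the other way from HE1 to HP. Of 15, 12 were called higher and 0 lower (median 3.43), where 5.35% and 11.2% of all tested genes were, with equal counts without HE1 replicate 2, when Cebpa was called in place of Itga2b. Among them were Ptprc, which encodes CD45 (5.88), Spi1, which encodes PU.1 (4.99), Nfe2 (4.55) and Ikzf1 (4.24). Without HE1 replicate 2 these log2 fold changes were 5.24, 5.23, 4 and 3.8. From HB to HE1, 5 of the 15 were called higher and 0 lower, where 12.7% and 8.19% of all tested genes were. Runx1, the factor required for the endothelial-to-hematopoietic transition, had 73.7 and 84.6 CPM in HB and 52.3 and 58.6 CPM in HE1. It had 295 and 519 CPM in HE2 and 522 and 412 CPM in HP, a rise of 3.07 from HE1 to HP (edgeR adjusted p = 8.12e-05). In HE2 the library with more Runx1, replicate 2, was the one with less Sox7, Sox17 and Sox18, and in HP the library with more Runx1, replicate 1, was again the one with less of each.

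Other SOX genes were followed as a list. From HB to HE1, 2 of 15 tested genes were called higher, Sox6 (4.35) and Sox5 (3.04) of the SOXD group, and 2 lower, Sox9 (-3.12) and Sox11 (-1.12), with a median of 0.14 (12.7% and 8.19% of all tested genes were called). From HE1 to HP, 7 were called lower and 0 higher (median -1.27, with 11.2% of all tested genes called lower), but without HE1 replicate 2 the lower calls were 2, Sox5 and Sox13, and those from HB to HE1 were 5. Sox5 rose from ES to HB (2.31, edgeR adjusted p = 0.00959) and on to HE1, and fell from HE1 to HP (-2.29, edgeR adjusted p = 0.00744), as Sox17 and Sox18 did. Sox9 stood at -4.37 from HB to HE1 without HE1 replicate 2. It fell by 2.30 from HE1 to HP (edgeR adjusted p = 0.0289), where it was not called without HE1 replicate 2 (-1.04, edgeR adjusted p = 0.336). Sox1 and Sox2, which mark neural and pluripotent cells, were 0 and 2.15 CPM and 0.715 and 9.28 CPM in HE1 replicates 1 and 2, so the HE1 levels behind their calls as lower in HP (edgeR adjusted p = 0.0304 for Sox1, which had 0.0228 and 0 CPM there, and -3.66 on the log2 scale for Sox2) came mainly from the library that also held more ES marker RNA. Sox6 had 62.3 and 62.4 CPM in HE1 and 45.4 and 48.3 CPM in HP and was not called (log2 difference -0.41, edgeR adjusted p = 0.0517).

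Because Sox7 and Sox17 are also endoderm genes, 16 endoderm markers were followed. They summed to 427 and 445 CPM in HB, 325 and 278 CPM in HE1, 123 and 66.4 CPM in HE2, and 41.1 and 53.8 CPM in HP. Of these markers, Afp and Ttr were at most 0.342 and 0.363 CPM in any library, and Foxa2 at most 2.58 CPM. Dab2 had 15.2 and 11.7 CPM in HB and 58.5 and 31.8 CPM in HE1. Cubn had 1.29 and 0.535 CPM in HB and 9.29 and 6.40 CPM in HE1. In HB most of the sum came from Gata4 and Gata6, which are also expressed in mesoderm and heart, with 199 and 229 CPM and 173 and 177 CPM. From HB to HE1 2 of 14 tested markers were called higher, Cubn (3.11) and Dab2 (1.75), and 4 lower, Epcam (-2.26), Gata6 (-1.47), Cer1, with 2.61 and 3.04 CPM in HB and 0 and 0.099 CPM in HE1, and Hnf4a, with 1.45 and 0.338 CPM in HB and 0 and 0.066 CPM in HE1 (12.7% and 8.19% of all tested genes were called). From HE1 to HP 5 were called lower, Gata4 (-3.32), Cdx2 (-3.18), Gata6 (-2.81) and Cubn (-2.45) with the largest changes, and 0 higher (11.2% of all tested genes were called lower). Without HE1 replicate 2 the counts were equal but not the genes: from HE1 to HP Cdx2, with 1.60 and 5.74 CPM in HE1, was no longer called (-1.98, edgeR adjusted p = 0.117) and Foxa2 was (-2.45, edgeR adjusted p = 0.0382). Epcam, with 1.77 and 6.67 CPM in HE1, was then lower than in HB by a log2 fold change of -3.54.

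The genes whose levels followed each SOXF gene most closely over the 10 libraries were named by Pearson's r of log2 CPM among 12235 genes. The libraries of a stage share that stage and depth differed between libraries, so r is a description. Sox7 was followed most closely by Sema6d (0.989), Dok4 (0.989), Hdac7 (0.987), Flt1 (0.987) and Man1c1 (0.986). For Sox17 the 5 were Adamts1 (0.995), Icam2 (0.993), Stab1 (0.992), Flt1 (0.992) and Rgl1 (0.992), and for Sox18 they were Shank3 (0.993), Ptprb (0.991), Map3k3 (0.989), Ppp3ca (0.987) and Hoxb4 (0.987). Flt1, which encodes VEGF receptor 1, was named for both Sox7 and Sox17, and had 130 and 133 CPM in HB, 308 and 256 CPM in HE1, and 38.4 and 67.6 CPM in HP. Icam2, an endothelial adhesion gene, had 67.3 and 42.2 CPM in HE1 and 2.76 and 8.64 CPM in HP, and so repeated the HP difference of Sox17 between the replicates. Among themselves the SOXF genes were closest for Sox7 and Sox17 (r = 0.974), then Sox17 and Sox18 (0.955) and then Sox7 and Sox18 (0.917), and none was among the 5 nearest of another. The names depended on the measure: by Spearman's rho, 0 of the 5 remained for Sox7 and Sox18 and 1 for Sox17.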

How the data were processed

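Nuclear RNA-seq counts of 10 libraries (5 stages, 2 libraries each) were analyzed. The study, in showing the expression of a gene at these stages, calls its replicates biologically independent. The labels number the libraries of a stage 1 and 2 and name no cultures, so p-values measure the spread between these libraries. The authors depleted ribosomal RNA, made stranded libraries, trimmed reads with Trimmomatic, aligned them to mm10 with HISAT2 2.2.1 and deposited raw counts per gene from featureCounts 2.0.1, set to strand and to count a fragment for every gene it overlaps, with Ensembl release 102. The authors also deposited a matrix of stage means, treated here as a score on the CPM scale, which was used only to choose the 3 genes. In the notes of the submitters, edgeR 3.40.2 and limma-voom 3.17 in R 4.2.3 were used downstream. Nuclear RNA holds unspliced transcripts, and reads were counted over exons.

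Counts were filtered by expression (22596 genes kept), scaled by TMM and tested over all 10 libraries with the quasi-likelihood test of edgeR 4.0.16 in R 4.3.3, with Benjamini-Hochberg adjustment. A gene was called at an adjusted p under 0.05 and at least a 2-fold difference. The shared spread had 5 residual degrees of freedom and a common biological coefficient of variation of 0.226. Standard errors are the log2 fold change over the root of its F value. CPM use TMM-scaled totals, and floors of 3 counts cover counting error only. With limma 3.58.1 and DESeq2 1.42.0, other scalings, no filter, fewer libraries and a replicate block, the results were recomputed. Named genes were the 3 SOXF genes, genes near Sox17 with a mean of at least 1 CPM in a stage, up to 4 called genes a direction of each list (other SOX, upstream, endothelial, hematopoietic and endoderm genes, and stage and other-cell markers) with the largest changes from HB to HE1 and from HE1 to HP, the sorted antigens, Runx1, and the 5 genes most like each member by Pearson's r (log2 CPM, prior count of 2, mean of at least 9 CPM in a stage). The genes and lists were chosen with earlier results of these data known. Of 55487 genes, 55227 had an entry in GENCODE M21, 54870 of them with the same span. Promoter motifs and protein identity of the 3 genes were not analysed here. A comparison of their coding sequences is not reported here.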

Additional observations from a re-analysis of the deposited data

How the results depend on the processing

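Of the main results under all alternatives, 450 values kept direction and side of the threshold (counts within 1.5 times), 14 gained a call, 13 lost one, 37 counts moved and 2 signs turned. Of the values for other comparisons and genes, 923 kept theirs, 9 gained a call, 26 lost one, 43 counts moved and 1 sign turned. The length of the first annotated transcript and all alternatives for the genes near Sox17 were chosen after seeing the data. A stage left with 1 library is assumed to vary like the others, and the causes of changes were not tested. All 3 genes stayed called from ES to HB and from HE1 to HP under every alternative. From HB to HE1, the Sox17 log2 fold change ranged from 2.47 to 2.84 over left-out libraries, the count of SOXF genes called from 1 to 2 (1 at a 4-fold limit) and the genes called from 2804 to 5553. From HE1 to HE2, Sox17 lost its call with total counts (-2.21), with only the 4 libraries compared (-2.15) and with the replicate block (-2.17, adjusted p = 0.0603), and ranged from -3.35 to -1.47 over left-out libraries. Sox7 gained a call in limma-voom (-2.11) and with no filter (-1.85), ranging from -3.15 to -1.19. Sox18 ranged from -0.91 to 0.21. SOXF genes called there numbered 2 in limma-voom and with no filter, 0 with total counts, with the 4 libraries and with the block, and 0 to 2 over left-out libraries. All genes called numbered 3818 with no filter, 535 with the 4 libraries and 420 to 4295 over left-out libraries, beside 1953. From HE2 to HP, no filter called Sox7 (-2.21), Sox17 (-2.05) and Sox18 (-2.23), and DESeq2 called Sox18 (-2.22), so 3 and 1 SOXF genes were called. Calls gained with no filter are doubtful, since standard errors on SOXF genes were then 0.202 to 0.345, against 0.351 to 0.896 with the filter. Over left-out libraries Sox7 ranged from -3.53 to -0.92, Sox17 from -3.41 to -0.81 and Sox18 from -2.65 to -1.62, with 0 to 3 SOXF genes and 0 to 526 genes called. All genes called there were 62 in limma-voom, 301 in DESeq2 and 534 with no filter. Genes called from HE1 to HP ranged from 1905 to 5460. Sox7 in HP against ES lost its call in limma-voom (3.37). Sox17 in HP against HB ranged from -2.86 to -0.77 and was called in 3 of 10 fits without 1 library and with no filter (-1.49). Sox18 in HE2 against HB lost its call in 3 of 10 such fits (0.97 to 2.00). Sox17 in HE2 against HB ranged from -0.68 (without HE2 replicate 1) to 1.20 over left-out libraries. Libraries with the same number share no stated source, and their deviations from the stage means correlated at -0.316 to 0.213 over 10 pairs of stages. The block changed no other call on a SOXF gene. Gm7357 in HE2 against HE1 lost its call with total counts (-2.91), with the 4 libraries (-2.82) and with the block (-2.77). Depth limits Gm37587, with at most 66 counts, and Sox17 in ES, with 12 and 9 counts.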
